A study of Mus musculus with 4 samples.

Results

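Solute carriers are membrane proteins that move sugars, amino acids, ions, metals, nucleotides and vitamins across the plasma membrane and the membranes of organelles. They are the named Slc and Slco genes, and here they were taken by name alone, as every listed gene whose symbol starts with Slc, a number and the letter a, or with Slco. The table held 38 of them among 2979 genes (1.28%). Of 357 protein-coding genes with such names in the mouse annotation, the others were not analysed here.

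Fibroblasts build the extracellular matrix of the lung, and here they were taken fresh from the lungs of BALB/c wild-type animals, 4 weeks old, and their RNA was sequenced. The control group was 2 libraries of cells without chemokine, and the chemokine group was 2 libraries of cells that had received 3 recombinant human proteins together for 3 hours, 8 nM CXCL1, 2 nM CXCL2 and 20 nM CXCL8. All are chemokines that attract neutrophils, and the series asks what they do to these fibroblasts. Nothing in the labels says whether the libraries of a group came from separate cultures or animals, so p-values rest on the spread between the samples alone, and this may be technical.

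Values are RPKM, read numbers divided by gene length and by the library's total, so levels of different genes can be compared. The implied totals were 28603764 to 36863654 reads per library. The deposited genes have the marks of a list selected on this same contrast, by a rule that is not given. In 100% of the 2979 genes, and so in all 38 solute carriers, the 2 control values and the 2 chemokine values do not overlap. Among the 13 fibroblast markers 7 were listed, of which 6 rose and Fn1 (fibronectin) fell, with summed levels of 1826 and 1830 RPKM in the controls and 1951 and 1960 RPKM in the chemokine libraries. Smooth muscle and pericyte markers were also high, with 4 of 8 listed and summed levels of 4359 and 4461 RPKM against 5124 and 5226 RPKM. Listed markers of other cells were low. Most markers of those cells were not listed, so their levels are unknown, and the sums cover few genes. The endothelial list had 2 of 12 listed, from 3.18 and 3.26 to 5.43 and 6.16 RPKM, the macrophage list 2 of 14, from 14.3 and 14.4 to 14.1 and 15.1 RPKM with Mrc1 lower and Ear2 higher, and the mesothelial list 1 of 5, from 5.76 and 5.84 to 7.52 and 7.98 RPKM. The epithelial list had 2 of 12 listed, from 8.31 and 8.47 to 10.1 and 10.5 RPKM, but Krt18 rose while Sftpb, below the filter and not tested, was at 1.18 and 1.24 RPKM in the controls and 0.391 and 0.331 RPKM in the chemokine libraries. None of 9 lymphocyte or 6 erythroid markers was listed, so these were not analysed here. Their part in the results below was not tested. In bulk RNA, fewer cells of a type and less RNA per cell cannot be told apart.

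Sugar carriers and several carriers of the mitochondrial inner membrane were higher after chemokine exposure, and most carriers of amino acids, metals and ions were lower. In all, 11 of the 38 solute carriers rose and 27 fell by limma on log2(RPKM + 1) at an adjusted p under 0.05, with adjusted p from 0.000217 to 0.017. Among all 2956 tested genes 42.8% rose and 57.2% fell, so that no tested gene failed, and on such a list these calls are not independent evidence. All 38 solute carriers passed the filter of a mean of 1 RPKM. Their median log2 fold change was -0.24, against -0.23 over all tested genes. The changes were small, from 0.37 for Slc25a11 to -0.53 for Slc29a3 on the log2 scale, and in the authors' deposited table the folds ran from 1.42 for Slc2a3 to 0.547 for Slc8a1. In a limma test against a fold of 1.2, 3 of the 38 fell (7.89%), among them Slc29a3 and Slc39a10, where 10.5% of all tested genes fell. None of the 38 rose in that test, where 3.28% of all genes rose. At an unadjusted p under 0.05 in the same test there were 2 rises and 10 falls among the 38. The share of all genes at that unadjusted threshold was not computed, so these 2 numbers cannot be read against it. The count moves with single libraries, as it does over all genes. Without control 1 none of the 38 and 183 of all 2956 genes fell past that fold. Without chemokine 1 it was 9 of the 38 and 708 of all genes, and 3 of the 38 and 490 of all genes rose.

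**Figure D1:**
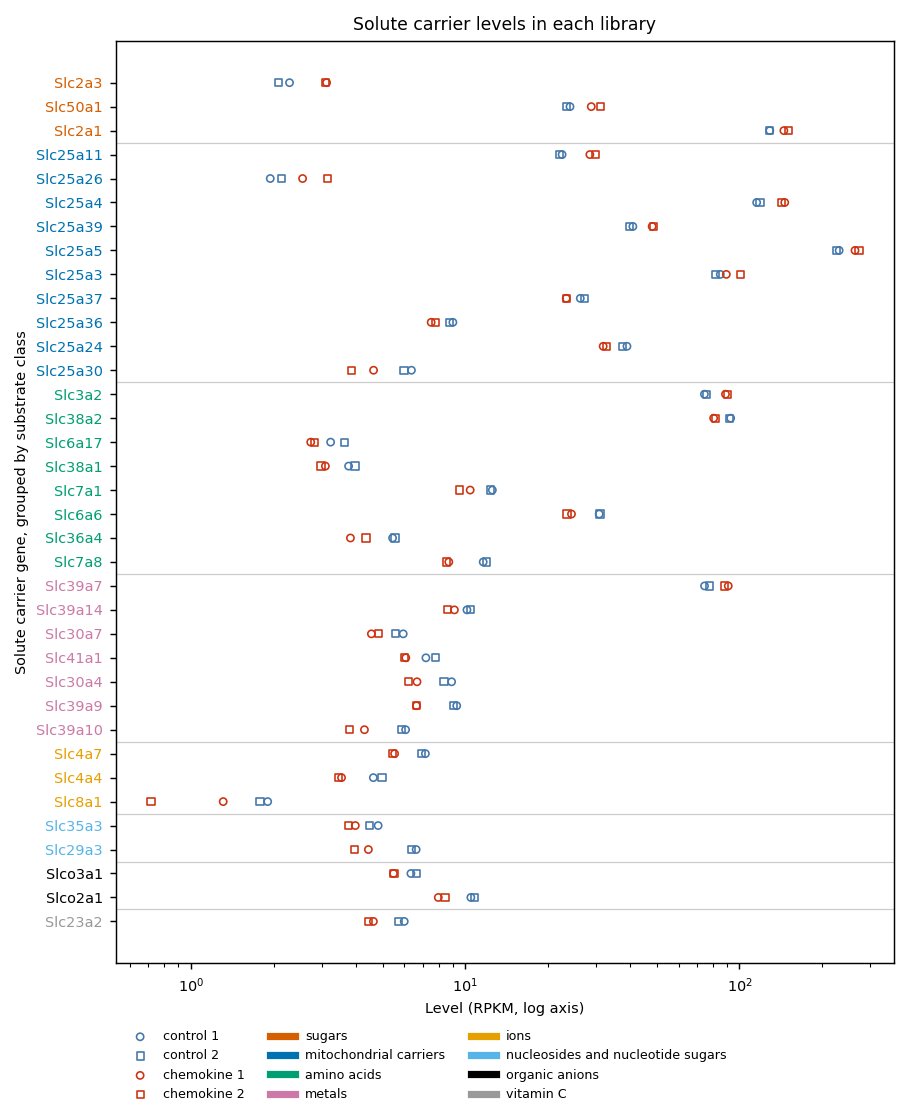
Level of 36 solute carrier genes in RPKM (log axis) in the 4 libraries, circles for replicate 1 and squares for replicate 2, blue for control and red for chemokine, with genes grouped by substrate class. The groups do not overlap for any gene, and the levels run from 0.715 RPKM for Slc8a1 to 273 RPKM for Slc25a5.

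The direction followed the length of the gene, in solute carriers as in the rest of the table. The length of all annotated exons together was 1466 to 7245 bases in the 11 that rose (median 2756) and 3431 to 18807 bases in the 27 that fell (median 8838). All 6 solute carriers under 3000 bases rose, as did 96.3% of the 875 tested genes of that size. Of 16 between 3000 and 8000 bases 5 rose (31.2%), against 34.1% of 1118 genes, and of 16 at 8000 bases or more none rose, against 4.06% of 960 genes. Between 3431 and 7245 bases, the range that both directions share, 5 rose and 10 fell. In each length class the share was therefore near that of the table. The 3′ UTR of the principal transcript had a median of 530 bases in those that rose and 3636 bases in those that fell, with coding lengths of 1071 and 1536 bases. Levels differed too, with a median of 82.4 RPKM for those that rose and 6.26 RPKM for those that fell. Across the 38 genes, which share the same 4 libraries and are not independent, Spearman's rho of the log2 fold change was -0.45 with exon length and 0.41 with the mean level, against -0.72 and 0.53 over all tested genes.

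**Figure D2:**
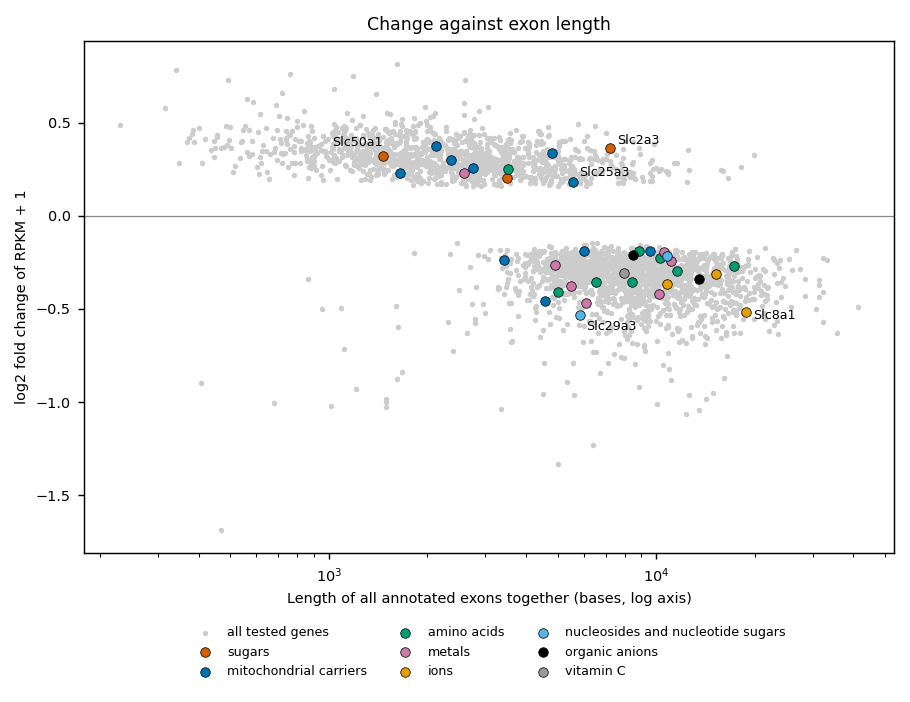
Log2 fold change of RPKM + 1 (chemokine over control) against the length of all annotated exons (bases, log axis), with 36 solute carriers coloured by substrate class over all tested genes in grey. No solute carrier of 8000 bases or more lies above 0, and Slc2a3, at 7245 bases, is the longest that does.

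Each change was therefore also computed after the trend of every library with exon length and GC content had been removed. By this measure 7 of the 38 were higher past the threshold (20.8% of all genes) and 8 were lower (21.8% of all genes). The sign changed in 14, but sign changes were not counted over all genes, so the 14 have no share to be read against. Quantile normalization, which moved the median log2 fold change of all tested genes from -0.23 to -0.01, left 4 higher (28.7% of all genes) and 12 lower (31.7% of all genes). Both steps were fitted on this list alone, where every tested gene had passed. Each assumes that changes balance out over the genes, which a list selected on this contrast need not meet. A call kept, lost or turned there therefore does not settle whether a gene changed. With that limit, a set of 9 solute carriers passed in the same direction in every setting that tested them. Among them were Slc2a3, Slc25a11 and Slc25a26, which rose, and Slc25a24, Slc30a4, Slc7a8, Slc39a10 and Slc29a3, which fell. The same count was not made over all tested genes, so the 9 have no share to be read against. Only quantile normalization, removal of the trend and leaving out a control changed any call. Without control 1 the calls of Slc38a2, Slc25a36 and Slc35a3 were lost (limma adjusted p = 0.0541, 0.091 and 0.0849). Without control 2 those of Slc25a3, Slc25a37, Slc39a14, Slco3a1 and Slc6a17 were lost (limma adjusted p = 0.0923, 0.0927, 0.0819, 0.0757 and 0.0944).

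**Figure D3:**
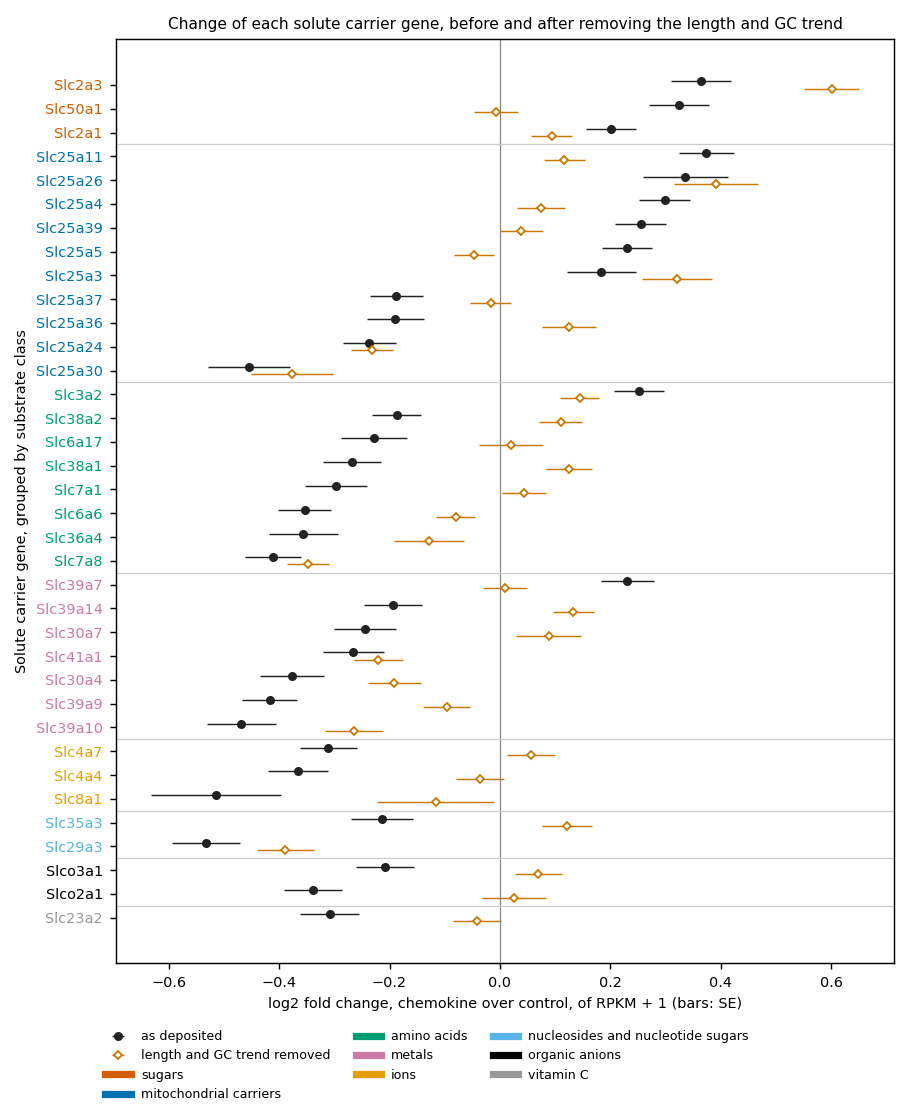
Log2 fold change of RPKM + 1 with its SE for 36 solute carriers, as deposited (black circles) and after removal of the length and GC trend (orange diamonds), grouped by substrate class. Slc2a3 moves from 0.36 to 0.60 and Slc25a3 from 0.18 to 0.32, while Slc50a1 moves from 0.32 to -0.0076 and Slc39a14 from -0.19 to 0.13.

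All 3 listed sugar carriers rose, where 42.8% of all tested genes did, although only Slc2a3 passed once the length and GC trend was removed. Slc2a1 encodes GLUT1, the basal glucose carrier of most cells, and Slc2a3 encodes GLUT3, a glucose carrier best known from neurons. Slc2a3 (chr6:122727809-122801640, minus strand, GRCm38) was at 2.29 and 2.09 RPKM in the controls, where 528 and 558 reads were counted, and at 3.12 and 3.09 RPKM in the chemokine libraries, where 647 and 757 were. The chemokine libraries were nearly equal and both above the controls, and the log2 fold change was 0.36 ± 0.05 (SE, limma adjusted p = 0.000447), which grew to 0.60 ± 0.05 with the trend removed (limma adjusted p = 0.00058) and to 0.68 under quantile normalization. With 7245 bases over all annotated exons it was the longest solute carrier that rose, while its principal transcript has 3959 bases. The trend was taken over the length of all annotated exons, and a trend over transcript length was not tested. Slc2a1 was far more abundant, at 129 and 128 RPKM in the controls and 145 and 151 RPKM in the chemokine libraries. Its log2 fold change of 0.20 ± 0.05 became 0.094 ± 0.037 with the trend removed (limma adjusted p = 0.0828) and -0.0032 under quantile normalization. Slc50a1, a sugar carrier of the SWEET family, rose from 24.1 and 23.4 RPKM to 28.8 and 31.2 RPKM. It is the shortest of all 38 genes, and its log2 fold change of 0.32 ± 0.05 (SE) was -0.0076 with the trend removed (limma adjusted p = 0.899) and 0.27 under quantile normalization, where it passed.

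The 2 listed genes of 19 fixed for glycolysis, which uses the glucose these carriers bring in, also rose (42.8% of all tested genes rose). Ldha, lactate dehydrogenase A, and Tpi1, triosephosphate isomerase, had log2 fold changes of 0.19 ± 0.05 and 0.16 ± 0.05 (SE), and neither passed with the trend removed (0.069 and -0.027) or under quantile normalization (-0.028 and -0.061). The promoter of Slc2a1 is shown because hypoxia-inducible factors are known to drive this gene through a short core motif. RefSeq (GRCm38.p6) gives it as chr4:119108495-119108794 on the plus strand, from 250 bases before to 50 after the start, with the core ACGTG in capitals.
Slc2a1: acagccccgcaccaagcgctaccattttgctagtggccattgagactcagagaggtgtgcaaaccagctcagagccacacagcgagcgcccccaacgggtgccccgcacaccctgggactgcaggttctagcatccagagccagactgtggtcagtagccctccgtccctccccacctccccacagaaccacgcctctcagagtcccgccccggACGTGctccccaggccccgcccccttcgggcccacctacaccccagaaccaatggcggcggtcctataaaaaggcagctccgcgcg
Promoter windows were found for 29 of the 38 genes, 9 that rose and 20 that fell. The motif ACGTG, searched on both strands, was in 8 of the 29 windows (27.6%), in 3 of the genes that rose and 5 of those that fell, and in 19.6% of all 32851 windows. Those windows include genes outside the deposited list. For this motif and those below, the share over the listed genes was not computed. Whether the match in the window of Slc2a1 is a site that hypoxia-inducible factors use was not tested.

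Mitochondrial carriers of the Slc25 family, which exchange nucleotides, phosphate, metabolites and metals across the inner membrane, were the most numerous class and split 6 higher to 4 lower. Slc25a4 and Slc25a5 encode the ADP/ATP carriers, which send ATP out of the matrix, and Slc25a3 the phosphate carrier that supplies ATP synthase. Slc25a5 had the highest level of all 38 genes, 231 and 226 RPKM in the controls and 264 and 273 RPKM in the chemokine libraries, a log2 fold change of 0.23 ± 0.05 (SE). It shares 49.4% of its 31-base words with other genes, mostly its own pseudogenes, so its value is uncertain. Slc25a4 was at 116 and 119 RPKM in the controls and at 146 and 142 RPKM in the chemokine libraries, from 0% shared words, a log2 fold change of 0.30 ± 0.05 (SE). With the length and GC trend removed neither carrier passed (Slc25a4 at 0.074, Slc25a5 at -0.047), and under quantile normalization they were at 0.093 and -0.039. Slc25a3 moved the other way with the trend removed. Its values of 85.1 and 82.0 RPKM in the controls and 89.5 and 100.8 RPKM in the chemokine libraries gave 0.18 ± 0.06. With the trend removed it was 0.32 ± 0.06 (limma adjusted p = 0.00764), but -0.026 under quantile normalization. All its annotated exons together have 5550 bases, and its principal transcript has 1612.

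Slc25a11, the carrier that exchanges 2-oxoglutarate for malate, had the largest rise of all solute carriers on the log2(RPKM + 1) scale, while with a pseudocount of 0.1 Slc2a3 (0.49) and Slc25a26 (0.46) were above it (0.39). At chr11:70644196-70647479 (minus strand), it was at 22.6 and 22.1 RPKM in the controls and at 28.5 and 29.9 RPKM in the chemokine libraries, a log2 fold change of 0.37 ± 0.05 (SE, limma adjusted p = 0.000311). With the trend removed it was 0.12 ± 0.04 and still past the threshold (limma adjusted p = 0.0434), and 8.92% of its exon bases overlap Rnf167 on the opposite strand. Slc25a26, which brings S-adenosylmethionine into mitochondria, rose from 1.95 and 2.14 RPKM to 2.55 and 3.15 RPKM, with 298 and 379 reads in the controls and 351 and 512 after chemokine. The chemokine libraries lay further apart than the controls, and the log2 fold change was 0.34 ± 0.08, or 0.39 ± 0.08 with the trend removed (limma adjusted p = 0.00748). All annotated exons of Slc25a26 together have 4807 bases, and its principal transcript has 1922. Slc25a39, needed for mitochondrial glutathione, rose from 40.9 and 39.7 RPKM to 48.0 and 48.5 RPKM, and did not pass with the trend removed (0.039).

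On the lower side, Slc25a30, a carrier related to the uncoupling proteins, had the largest fall of the family. Its 6.37 and 5.98 RPKM in the controls became 4.63 and 3.86 RPKM, a log2 fold change of -0.45 ± 0.07 (SE), and -0.38 ± 0.07 with the trend removed (limma adjusted p = 0.00755), but -0.16 without passing under quantile normalization. Slc25a24, the calcium-regulated carrier of ATP-Mg and phosphate, was at 38.9 and 37.5 RPKM in the controls and at 31.8 and 32.6 RPKM in the chemokine libraries. At -0.24 ± 0.05 as deposited and -0.23 ± 0.04 with the trend removed it was nearly unaffected by that step, and it was -0.36 under quantile normalization. Slc25a37, or mitoferrin 1, the importer of iron for heme, and Slc25a36, a pyrimidine nucleotide carrier, both fell by 0.19 on the log2 scale. With the trend removed they were at -0.017 and 0.13 without passing, and under quantile normalization Slc25a37 passed (-0.24) and Slc25a36 did not (-0.0089).

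Listed genes of the mitochondrial outer membrane and import machinery were all higher. Of 25 genes fixed for import and for carriers not named Slc, 10 were listed and all 10 rose, where 42.8% of all tested genes did. Their median log2 fold change was 0.23, against -0.23 over all tested genes. Mpc2, a subunit of the pyruvate carrier, rose by 0.26 ± 0.06 and Tomm20, a receptor for imported proteins, by 0.25 ± 0.06 on the log2 scale (SE). With the length and GC trend removed 8 of the 10 passed upward (20.8% of all genes) and none downward (21.8% of all genes). Under quantile normalization 5 passed upward (28.7% of all genes) and 2 were below 0.

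Amino acid carriers were lower with 1 exception, and that exception is the partner of a carrier that fell. Slc3a2 encodes CD98, the heavy chain that brings light chains such as LAT2 (Slc7a8) to the cell surface. Slc3a2 was at 74.5 and 75.8 RPKM in the controls and at 88.9 and 90.4 RPKM in the chemokine libraries, a log2 fold change of 0.25 ± 0.04 (SE, limma adjusted p = 0.000848). Slc7a8 (chr14:54722209-54781946, minus strand) was at 11.6 and 12.0 RPKM in the controls and at 8.71 and 8.55 RPKM in the chemokine libraries, a log2 fold change of -0.41 ± 0.05 (limma adjusted p = 0.000246). Both passed in opposite directions when the length and GC trend was removed (0.14 ± 0.04 and -0.35 ± 0.04), while under quantile normalization Slc3a2 was at 0.037 without passing and Slc7a8 at -0.26. Bsg, or basigin, the partner of the monocarboxylate carriers, was at 377 and 391 RPKM in the controls and at 462 RPKM in both chemokine libraries, but was -0.042 with the trend removed and -0.032 under quantile normalization.

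The other 6 amino acid carriers that fell had log2 fold changes from -0.36 to -0.19. Slc6a6, the taurine carrier, was at 30.8 and 30.98 RPKM in the controls and at 24.4 and 23.5 RPKM in the chemokine libraries (-0.35 ± 0.05). Slc38a2, or SNAT2, the sodium-coupled carrier of small neutral amino acids, was the most abundant solute carrier that fell, from 92.9 and 92.1 RPKM to 80.5 and 81.7 RPKM. Slc38a1 (SNAT1) changed by -0.27, Slc7a1, the arginine and lysine carrier CAT1, by -0.30, Slc36a4, a carrier of proline and tryptophan, by -0.36, and Slc6a17, known from synaptic vesicles, by -0.23. With the length and GC trend removed none of these 6 was lower past the threshold. Slc6a6 was at -0.080 and Slc36a4 at -0.13 without passing, while Slc38a2 (0.11), Slc7a1 (0.043), Slc6a17 (0.020) and Slc38a1 (0.13) were above 0, the last of them past the threshold (limma adjusted p = 0.04999). Under quantile normalization Slc6a6, Slc38a2, Slc7a1 and Slc7a8 were lower past the threshold, while Slc38a1 and Slc6a17 were at 0.031 and 0.081.

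Genes of the amino acid response, the program that the transcription factor ATF4 drives when amino acids run short, were higher. Of 20 fixed genes 9 were listed and all 9 rose, with a median log2 fold change of 0.33, where 42.8% of all tested genes rose and the median was -0.23. Except for Psph (4329 bases), these genes are short, with 1504 to 2514 exon bases. Of all tested genes under 3000 bases 96.3% rose, with a median of 0.33. Cebpb, a partner of ATF4 on DNA, went from 117 and 117 RPKM to 178 and 167 RPKM, a log2 fold change of 0.55 ± 0.05 (SE), and Ddit4, an inhibitor of mTORC1, from 27.0 and 28.7 RPKM to 40.6 and 36.3 RPKM. All 9 remained above 0 with the trend removed, where 4 passed upward (20.8% of all genes), and under quantile normalization, where 7 did (28.7% of all genes). Slc3a2, which rose, and Slc7a1 and Slc38a2, which fell (-0.30 and -0.19), are themselves known targets of ATF4. The promoter of Slc3a2 is shown for that reason, as RefSeq (GRCm38.p6) gives it at chr19:8713848-8714147 on the minus strand. The capitals mark both copies of the GC box GGGCGG, a different motif from the C/EBP-ATF response element that was also searched.
Slc3a2: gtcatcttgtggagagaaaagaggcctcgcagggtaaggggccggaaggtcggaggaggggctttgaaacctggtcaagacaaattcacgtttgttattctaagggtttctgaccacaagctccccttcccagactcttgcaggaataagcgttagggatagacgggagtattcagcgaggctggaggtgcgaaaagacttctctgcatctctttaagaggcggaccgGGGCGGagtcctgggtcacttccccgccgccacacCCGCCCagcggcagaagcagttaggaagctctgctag
The core of the C/EBP-ATF response element, searched as TGATGNAA on both strands, is not in this window. It was in 2 of the 29 windows (6.9%), those of Slc50a1 and Slco2a1, and in 3.97% of all windows. The GC box was in 24 of the 29 (82.8%), in all 9 of the genes that rose and 15 of the 20 that fell, and in 35.7% of all windows. Whether the other listed genes differ from the solute carriers in this was not tested.

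Carriers of metals were lower except for 1 zinc carrier. In the Slc39 (ZIP) family, which brings zinc into the cytosol, Slc39a10, of the plasma membrane, fell most. At chr1:46807544-46892852 (minus strand), it was at 6.06 and 5.86 RPKM in the controls, from 1177 and 1317 reads, and at 4.29 and 3.78 RPKM in the chemokine libraries, from 748 and 781 reads. Its log2 fold change was -0.47 ± 0.06 (SE, limma adjusted p = 0.000304), and -0.26 ± 0.05 once the length and GC trend was removed. Slc39a9 fell from 9.31 and 9.08 RPKM to 6.64 and 6.63 RPKM (-0.42 ± 0.05), with nearly equal chemokine libraries. It was -0.096 without passing once the trend was removed, but passed under quantile normalization (-0.23). Slc39a14, which carries zinc and iron, fell by 0.19 on the log2 scale (SE 0.05) and turned to 0.13 ± 0.04 with the trend removed, past the threshold in the other direction (limma adjusted p = 0.0282), and -0.031 under quantile normalization. Slc39a7, which releases zinc from the endoplasmic reticulum, was the only member of the class that rose, from 74.6 and 77.8 RPKM to 91.0 and 88.1 RPKM. It shares 80.7% of its exon bases with the same-strand gene Gm20427, so its reads are uncertain, and it was 0.0093 with the trend removed and 0.027 under quantile normalization.

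In the Slc30 (ZnT) family, which moves zinc out of the cytosol into vesicles and the Golgi, both listed members fell. Slc30a4 was at 8.92 and 8.37 RPKM in the controls and at 6.67 and 6.19 RPKM in the chemokine libraries, a log2 fold change of -0.38 ± 0.06 (SE), and -0.19 ± 0.05 with the trend removed (limma adjusted p = 0.0184). Slc30a7 fell by 0.24 on the log2 scale, was 0.088 with the trend removed and 0.028 under quantile normalization, and shares 16% of its exon bases with genes on the opposite strand. Slc41a1, a magnesium carrier, fell from 7.19 and 7.77 RPKM to 6.07 and 6.03 RPKM and passed with the trend removed (-0.22 ± 0.04) but not under quantile normalization (-0.032). The promoter of Slc30a4 is shown as that of the zinc carrier in whose window the core of the metal response element, the site of the zinc sensor MTF1, was found. RefSeq (GRCm38.p6) gives it at chr2:122702614-122702913 on the minus strand, with the 3 matches to TGCACNC or TGCGCNC, on either strand, in capitals.
Slc30a4: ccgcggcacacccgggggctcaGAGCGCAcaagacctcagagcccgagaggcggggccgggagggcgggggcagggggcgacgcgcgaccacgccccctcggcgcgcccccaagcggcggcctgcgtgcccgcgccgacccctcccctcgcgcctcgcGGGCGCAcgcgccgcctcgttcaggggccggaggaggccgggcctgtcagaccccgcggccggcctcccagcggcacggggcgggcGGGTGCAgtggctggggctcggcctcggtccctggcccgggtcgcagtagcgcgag
This core was in 10 of the 29 windows (34.5%), in 6 of the genes that rose and 4 of those that fell, and in 25.7% of all windows. A match to so short a motif is a description only.

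Other genes of metal handling moved both ways. Of 20 fixed genes 12 were listed, 7 rose and 5 fell, with a median log2 fold change of 0.26. Among all tested genes 42.8% rose and 57.2% fell. Mt2, a metallothionein that buffers zinc and copper, rose from 228 and 231 RPKM to 324 and 381 RPKM, a log2 fold change of 0.61 ± 0.07 (SE). Atp7a, the copper pump, fell from 2.34 and 2.47 RPKM to 1.32 and 0.92 RPKM (-0.69 ± 0.08). Both passed with the trend removed (0.20 and -0.39) and under quantile normalization (0.38 and -0.37). Over the list, 3 passed upward (20.8% of all genes) and 1 downward (21.8% of all genes) with the trend removed. Steap2, which fell (-0.22), turned to 0.13 there, past the threshold. Under quantile normalization 4 passed upward (28.7% of all genes) and 4 downward (31.7% of all genes). For iron, chosen after their values were seen, the ferritin subunits Fth1 (0.28) and Ftl1 (0.24) rose, while Tfrc, the transferrin receptor (-0.25), and Ireb2, an iron sensor that controls ferritin and transferrin receptor RNA (-0.35), fell. Of these 4 only Fth1 passed with the trend removed (0.17), Ftl1 being at -0.12. Under quantile normalization Tfrc (-0.28) and Ireb2 (-0.22) passed, while Ftl1 was at -0.048 and Fth1 at 0. That step gives equal values to equal ranks, so the 0 of Fth1 cannot tell whether its level changed.

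All 4 listed carriers of ions fell, where 57.2% of all tested genes did. None of the 4 carriers passed after removal of the length and GC trend or under quantile normalization. They include 2 sodium bicarbonate carriers that regulate cell pH, Slc4a4 and Slc4a7. Slc4a4 was at 4.62 and 4.97 RPKM in the controls, from 1593 and 1981 reads, and at 3.54 and 3.45 RPKM in the chemokine libraries, from 1095 and 1263 reads (-0.37 ± 0.05, SE). Slc4a7 went from 7.16 and 6.92 RPKM to 5.53 and 5.44 RPKM (-0.31 ± 0.05). With the trend removed Slc4a4 was at -0.036 and Slc4a7 at 0.057, and under quantile normalization they were at -0.060 and -0.061.

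Slc8a1, the sodium calcium exchanger NCX1, had the lowest level of the 38 genes and the least even chemokine libraries. It was at 1.90 and 1.78 RPKM in the controls and at 1.31 and 0.715 RPKM in the chemokine libraries. The ratio of 1.83 between its chemokine libraries was the highest of all 2979 genes, while the median ratio was 1.04 for solute carriers and 1.061 for all genes. Its log2 fold change was -0.51 ± 0.12 (SE, limma adjusted p = 0.00258), and -0.86 with a pseudocount of 0.1 in place of 1, since the main scale understates changes at low levels. It was -0.12 ± 0.11 with the trend removed (limma adjusted p = 0.416) and -0.20 under quantile normalization, without passing in either.

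Ion pumps and their regulators moved both ways, with 7 of 21 fixed genes listed, 2 higher and 5 lower. Among all tested genes 42.8% were higher and 57.2% lower. Wnk1, a kinase that regulates ion transport, fell from 14.6 and 15.0 RPKM to 10.1 and 9.09 RPKM, a log2 fold change of -0.58 ± 0.06 (SE), and passed with the trend removed (-0.17) and under quantile normalization (-0.46). Atp1b3, a subunit of the sodium potassium pump that maintains the gradient many of these carriers use, rose from 62.4 and 63.9 RPKM to 76.6 and 82.3 RPKM (0.33 ± 0.05), and passed in both of those settings (0.14 and 0.15). The falls were less stable over the list. With the trend removed 4 passed upward (20.8% of all genes) and 1 downward (21.8% of all genes). Atp2b1 (-0.23) and Clcn3 (-0.20) turned to 0.13 and 0.18, past the threshold. Under quantile normalization 1 passed upward (28.7% of all genes) and 3 downward (31.7% of all genes).

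Carriers of nucleosides, nucleotide sugars, organic anions and vitamin C were lower, and they include Slc29a3, whose fall was the largest on the log2(RPKM + 1) scale, though with a pseudocount of 0.1 that of Slc8a1 (-0.86) was larger than its own (-0.62). Slc29a3 encodes ENT3, a nucleoside carrier of lysosomes and other organelles. At chr10:60712072-60752794 (minus strand), it was at 6.62 and 6.37 RPKM in the controls, from 1231 and 1371 reads, and at 4.43 and 3.94 RPKM in the chemokine libraries, from 740 and 779 reads. Its log2 fold change of -0.53 ± 0.06 (SE, limma adjusted p = 0.000217) was -0.39 ± 0.05 with the trend removed. It also passed under quantile normalization, at -0.25.

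Slco2a1, the carrier that takes up prostaglandins, which lung endothelium also expresses, was at 10.5 and 10.8 RPKM in the controls and at 7.98 and 8.43 RPKM in the chemokine libraries (-0.34 ± 0.05, SE). It fell while the 2 listed endothelial markers rose, Sox18 by 0.82 and Pecam1 by 0.31 on the log2 scale, and was 0.026 without passing with the trend removed and -0.18, past the threshold, under quantile normalization. Slco3a1, another organic anion carrier, changed by -0.21, Slc35a3, which brings UDP-N-acetylglucosamine into the Golgi, by -0.21, and Slc23a2, the vitamin C carrier SVCT2, by -0.31. None of these 3 passed with the trend removed (0.070, 0.12 and -0.041) or under quantile normalization (0.061, 0.092 and -0.021).

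Transporters of other families were lower as well. Of 31 fixed ABC transporters, which use ATP to move substrates across membranes, 6 were listed. Among them was Abce1, a ribosome recycling factor of the same protein family. All 6 fell, where 57.2% of all tested genes did, with a median log2 fold change of -0.29 against -0.23 over all tested genes. Abca3, known for loading surfactant lipid in alveolar cells, and Abca1, the cholesterol exporter, had log2 fold changes of -0.31 ± 0.06 and -0.30 ± 0.05 (SE). Of 31 transporters under other names 3 were listed and all 3 fell, led by the phosphate exporter Xpr1 (-0.40 ± 0.06) and the lysosomal cholesterol carrier Npc1 (-0.27 ± 0.05). With the trend removed none of the ABC transporters passed (21.8% of all genes passed downward) and 3 of the 6 were above 0. Under quantile normalization 4 passed downward (31.7% of all genes) and 1, Abca1, was above 0. With the trend removed only 1 of the 3 others passed and that was Sidt2 (-0.15), while Npc1 was above 0 (0.063), as it was under quantile normalization (0.021).

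**Figure D4:**
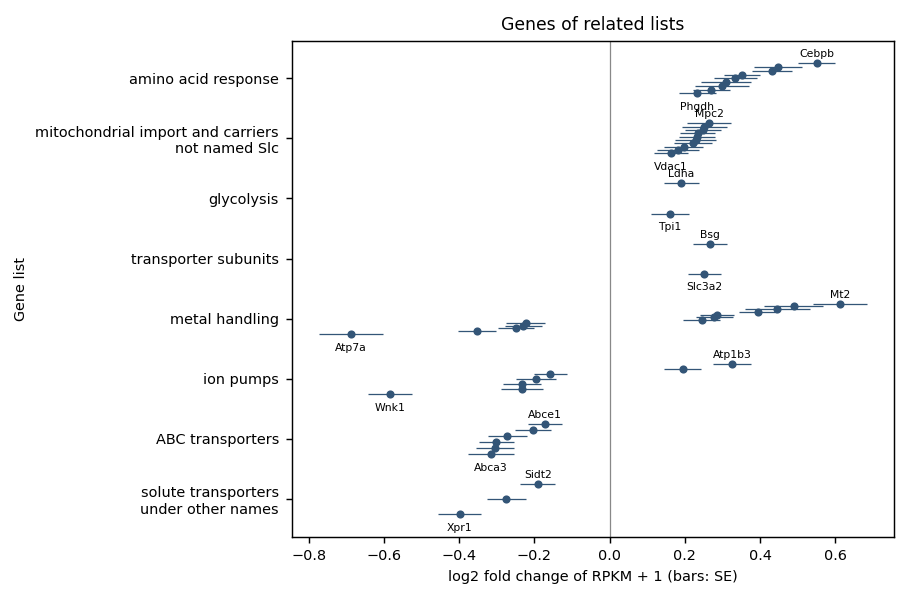
Log2 fold change of RPKM + 1 with its SE for every listed gene of 8 related lists, with the highest and lowest of each list named. The amino acid response and mitochondrial import lists lie wholly above 0 and the ABC transporters wholly below, while metal handling runs from -0.69 (Atp7a) to 0.61 (Mt2).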

How the data were processed

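RNA was measured by sequencing in 4 libraries, 2 per group. The mouse build was GRCm38/mm10, and TopHat2 2.0.7 and DESeq2 are named without a role, per the submitters' processing notes. How reads were counted, on which annotation and strand, and how genes were selected is not given in the sources used. The authors' deposited values are RPKM, a unit worked out from the values. A linear fold per gene, chemokine over control, was also deposited. With exon lengths of GENCODE M21 (GRCm38), 1176 genes, 16 of them solute carriers, gave whole reads in all libraries (within 1e-06 of a whole number), and these reads are printed. All 38 identifiers were found there.

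The test was limma 3.58.1 (R 4.3.3) on log2(RPKM + 1) with its variance trend, fitted over the 2956 genes that averaged 1 RPKM or more, two-sided, with Benjamini-Hochberg adjustment over all of them and a threshold of 0.05. Values come from one table, with no unmapped column. The script was tested on simulated data. An exact permutation of 2 against 2 libraries cannot give a p below 0.333. Alternatives were a pseudocount of 0.1, no filter, a mean of 10 RPKM, quantile normalization, removal of the length and GC trend (loess, 2953 genes), a replicate block, and leaving out each library. Full values were given for the 6 largest rises and falls, the 4 highest levels and the largest change of each class, and up to 2 genes per related list. Full values of other solute carriers (among them Slc3a2, Slc6a6, Slc38a2, Slc39a7, Slc30a4, Slc41a1, Slc25a24, Slc4a4 and Slc4a7) are given by choice after their values were seen, as are those of other list genes. Of the 38 genes, 2 are in all counts but their own values are not reported here. Members, classes and lists were chosen with earlier results of these data known, and adjusted p-values on a selected list do not stand for all genes measured. Precision is limited by 2 libraries per group. Reads of genes that overlap on opposite strands may be mixed, since the strand setting is unknown.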

Additional observations from a re-analysis of the deposited data

How the results depend on the processing

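The calls of all 38 solute carriers stayed the same with a pseudocount of 0.1, with no filter, without either chemokine library and with the replicate block. With a mean of 10 RPKM 16 were tested, 9 rose (56.2%) and 7 fell, against 61.4% and 38.6% of 1789 genes (no ion, organic anion or nucleoside carrier was left; amino acids 4 lower, metals 0, mitochondrial carriers 2, vitamins and lipids 1, metal handling 3, transporters under other names 1). Removal of the length and GC trend left 7 higher (20.8% of all genes) and 8 lower (21.8% of all genes). By class these were 2 higher and 1 lower for amino acids, 0 lower for ions, 3 lower for metals, 3 higher and 2 lower for mitochondrial carriers, 0 for organic anions, 1 lower for nucleosides, 1 higher for sugars and 1 lower for vitamins and lipids. Among related lists it left 0 for glycolysis, 4 higher for the amino acid response, 4 higher and 1 lower for ion pumps, 3 higher and 1 lower for metal handling, 1 for transporter subunits, 0 for ABC transporters and 1 for transporters under other names. Quantile normalization left 4 higher (28.7% of all genes) and 12 lower (31.7% of all genes). By class these were 0 higher and 4 lower for amino acids, 0 for ions, 0 higher and 3 lower for metals, 2 higher for sugars, 2 and 2 for mitochondrial carriers, and 1 lower for each of organic anions, nucleosides, and vitamins and lipids. Among lists it left 0 for glycolysis, 1 higher and 3 lower for ion pumps, 4 higher and 4 lower for metal handling, 5 higher for mitochondrial import, 0 for transporter subunits and 1 for transporters under other names.

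Signs turned without passing, among others, for Slc50a1 (-0.0076), Slc25a5 (-0.047), Slc38a2 (0.11), Slc25a36 (0.13), Slco3a1 (0.070), Slc35a3 (0.12), Slc6a17 (0.020), Slc30a7 (0.088), Slc7a1 (0.043), Slc4a7 (0.057) and Slco2a1 (0.026) with the trend removed, and Slc39a14 (0.13) and Slc38a1 (0.13) turned and passed. Under quantile normalization, among others, Slc25a5 (-0.039), Slc2a1 (-0.0032), Slc25a3 (-0.026), Slco3a1 (0.061), Slc35a3 (0.092), Slc6a17 (0.081), Slc30a7 (0.028) and Slc38a1 (0.031) turned, none past the threshold. The cause was not tested.

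Against a fold of 1.2, where 0 rose and 3 fell, the numbers were 1 and 6 with a pseudocount of 0.1 (181 and 518 of all genes), 0 and 1 at a mean of 10 RPKM (52 and 86), 2 and 0 under quantile normalization (220 and 185), and 1 and 0 with the trend removed (77 and 65), where the main numbers over all genes were 97 and 310. Leaving out 1 library gave 0 to 3 rises and 0 to 9 falls, the lowest of the falls without control 1 and the highest of both without chemokine 1. It also gave 1 to 2 falls for organic anions (1 without control 2) and for nucleosides (1 without control 1), 0 to 2 rises for glycolysis (0 without control 2), and 1 to 2 rises (1 without control 1) and 2 to 5 falls (2 without control 2) for ion pumps. A group left with 1 library is assumed to vary like the other. The replicate block gave 5 falls past that fold (327 of all genes) and changed no other call, and same-numbered libraries did not deviate together (correlation -0.156). The crossed pairing, chosen after seeing the data, also gave 5 (418 of all genes). Depth limited few values, since the lowest exact count of a solute carrier was 298 reads.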
